A study of Mus musculus with 6 samples.

Results

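The genes that write, copy and remove DNA methylation were followed in cultured mouse neural stem and progenitor cells by RNA sequencing. They are the methyltransferases Dnmt1, Dnmt3a and Dnmt3b, the hemimethylation readers Uhrf1 and Uhrf2, the dioxygenases Tet1, Tet2 and Tet3, and the glycosylase Tdg. These 9 genes were taken by name from 17254 gene identifiers in the deposited tables, and all 9 were found and passed the filter on low counts. The cultures grew in N2 medium with EGF and bFGF and formed 3 groups of 2 libraries each: a control, a PQ treatment and a NAC treatment, each treatment lasting 48 h. The series names different intracellular redox potentials as the aim of the treatments. The labels spell out neither PQ nor NAC and give no dose, strain, age or passage. Whether both libraries of a group were grown as separate cultures is not stated. The p-values therefore rest on how far these libraries differed, and that spread may be technical.

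Summed expected counts per library were 9680436 to 10698241. The 2 libraries of a group differed by more than counting noise, with a chi-square per degree of freedom of 4.07 to 6.77. All 17 markers of neural stem cells and radial glia were listed, with control means of 568 CPM (the count scaled to a common library size) for Nes, 383 for Sox2 and 4182 for Vim, while Prom1 and Hes5 were at 0 to 0.416 CPM. Of other cell types, Rbfox3 of neurons, Mog and Mag of oligodendrocytes and Cldn5 of endothelium were at 0 in every library, and other markers on the same lists were not. The 12 neuronal markers summed to 369 to 436 CPM, mostly Map2, Nefl and Nefm, the 9 of the oligodendrocyte lineage to 1582 to 2138, mostly Olig1 and Olig2, and the 6 of endothelium to 81.9 to 124, mostly Flt1.

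DNA methylation in mammals sits mainly on the cytosine of CpG pairs. Copying a methylated strand leaves a hemimethylated duplex, which UHRF1 binds and DNMT1 then restores to full methylation, so the pair acts at replication forks. DNMT3A and DNMT3B place methyl groups on unmethylated sites, and DNMT3A is the main such enzyme of the neural lineage after early development. The TET enzymes use oxygen, iron and 2-oxoglutarate to oxidise 5-methylcytosine stepwise, and TDG removes the later oxidation products, after which base excision repair inserts an unmodified cytosine.

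The sequence of 1 member limits what its counts can show, and it is given first for that reason. Tdg has a transcribed pseudogene, Tdg-ps2, on the same chromosome. Over the 1191 coding bases of Tdg the pseudogene aligned without a gap and differed at 9 bases, an identity of 99.24%. Of the 1142 stretches of 50 coding bases, 873 (76.4%) were also present in the pseudogene. The pseudogene aligned here is the GENCODE M21 model of 1194 bases. The entry counted in the deposited tables appears longer. In control replicate 1 it had 1741 counts and 59.69 FPKM, a similar count per FPKM to Tdg (78.81 and 2.43), which was counted over 3218 bases. The identity given here covers only the aligned bases. The 120-base window that holds 5 of the 9 mismatches is printed from both genes, with the mismatched bases in capitals. In Tdg it lies in 2 coding exons on the plus strand of GRCm38, from base 982 of the coding sequence, and runs with the intron over chr10:82648009-82648627. In the pseudogene, annotated at chr10:42054113-42055306, it is the minus strand of chr10:42054206-42054325.
Tdg: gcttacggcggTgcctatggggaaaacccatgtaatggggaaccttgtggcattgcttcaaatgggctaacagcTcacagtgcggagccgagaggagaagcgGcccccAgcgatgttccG
Tdg-ps2: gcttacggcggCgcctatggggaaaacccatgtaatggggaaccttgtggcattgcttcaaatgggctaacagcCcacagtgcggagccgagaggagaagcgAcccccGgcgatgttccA

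A second set of sequences comes from a search of the promoters of all 9 members. Those of Dnmt1 and Uhrf1 are printed because an E2F site variant was found in them. The 250 bases before each RefSeq start site (GRCm38.p6) were searched on both strands for the E2F site variants TTTCCCGC, TTTGGCGC, TTTCGCGC and TTTGCCGC, for CCAAT and for TTTGAA. E2F factors are regulators of replication genes. Of the 9 members, Dnmt1 and Uhrf1 held an E2F variant, in both cases TTTCGCGC, shown in capitals in 30 bases around it. At the third of 3 listed Dnmt1 start sites it began 219 bases upstream, on the reverse strand, within an exon of another Dnmt1 isoform. The stretch printed is the minus strand of chr9:20952824-20952853. At the second of 2 listed Uhrf1 start sites it began 185 bases upstream, outside any annotated Uhrf1 exon, on the plus strand of chr17:56304117-56304146.
Dnmt1: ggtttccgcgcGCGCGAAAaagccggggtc
Uhrf1: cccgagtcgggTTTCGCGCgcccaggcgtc

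TTTCGCGC was present in 84 of 32851 such windows in RefSeq (0.26%), and any of the 4 variants in 611 (1.86%). Counted per gene, 407 of 10218 tested genes with a window held a variant (3.98%), against 7 of 29 genes of an S phase list (24.14%) and 1 of 32 genes of a G2 and M phase list (3.12%). The 2 windows with the variant held 26 CpG pairs for Dnmt1 and 30 for Uhrf1, where the median of all windows was 6. Among windows of members without it, that of Tet2 held 51 and 2 of Dnmt3a held 38 and 40, while the others held 15 to 23. The other Dnmt1 windows held 2 and 7, and the other Uhrf1 window held 10. CCAAT, found in 33.85% of windows, was present before Dnmt1, Uhrf1, Tet3 and Tdg, and TTTGAA, found in 15.99%, before Dnmt1 and Dnmt3b. The windows of Dnmt3a, Uhrf2, Tet1 and Tet2 held none of these letters. A match describes the letters of a window and was not tested as a bound site.

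Per transcript length (FPKM), Dnmt1 had the highest level of the 9 genes and Dnmt3b the lowest in each of the 6 libraries. Mean control FPKM was 91.1 ± 6.04 for Dnmt1, 47.4 ± 7.82 for Uhrf1, 26.7 ± 2.58 for Uhrf2 and 11.3 ± 0.0566 for Dnmt3a (SD, n = 2). Below them stood Tet3 at 5.74 ± 0.0283, Tet2 at 4.76 ± 0.156, Tdg at 2.305 ± 0.177, Tet1 at 2.255 ± 0.502 and Dnmt3b at 0.48 ± 0.0990 (SD, n = 2). Tdg and Tet1 overlapped in control, at 2.18 and 2.43 against 1.90 and 2.61 FPKM, and the other neighbours in this order did not. Dnmt1 and the Uhrf genes thus stood above Dnmt3a, and Dnmt3a stood above the Tet genes.

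The copying pair Dnmt1 and Uhrf1 and the dioxygenase Tet3 were lower in the PQ libraries. In PQ against control edgeR called 3 of the 9 genes lower, Dnmt1 by 1.46-fold, Uhrf1 by 1.51-fold and Tet3 by 1.26-fold. None was called higher, and at an unadjusted p under 0.05 edgeR also had 0 higher and 4 lower, while DESeq2 and limma each called 0 higher and 2 lower. Over all 12813 tested genes edgeR called 17.9% either way, 9.07% higher and 8.8% lower. With library size scaling the split of these calls over all genes moved from 50.8% to 58.0% higher. The median log2 fold change was -0.28 over the 9 genes and -0.002 over all genes. The count over all genes depended on single libraries: 2289 genes were called with all 6, 829 without PQ replicate 2 and 1477 without PQ replicate 1.

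With NAC, 1 of the 9 genes differed from control, Dnmt3a, which was 1.28-fold higher. A count of 1 in 9 is near the 8.65% of all tested genes called higher. None was called lower by edgeR, DESeq2 or limma, and 2 were lower at an unadjusted p under 0.05 in edgeR. Over all genes edgeR called 17.9% either way, 8.65% higher and 9.26% lower. That count fell from 2294 to 1338 without NAC replicate 1 and to 1523 without NAC replicate 2. In PQ against NAC 4 of the 9 were called lower, Dnmt1, Uhrf1, Dnmt3a and Tet3, against 30.6% of all genes either way, 15.5% higher and 15.1% lower. No member was higher there at an unadjusted p under 0.05 in edgeR or by DESeq2 or limma, and the 3926 calls over all genes fell to 2427 without PQ replicate 2. The 3 comparisons share libraries with each other, so they are not independent of each other.

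**Figure D1:**
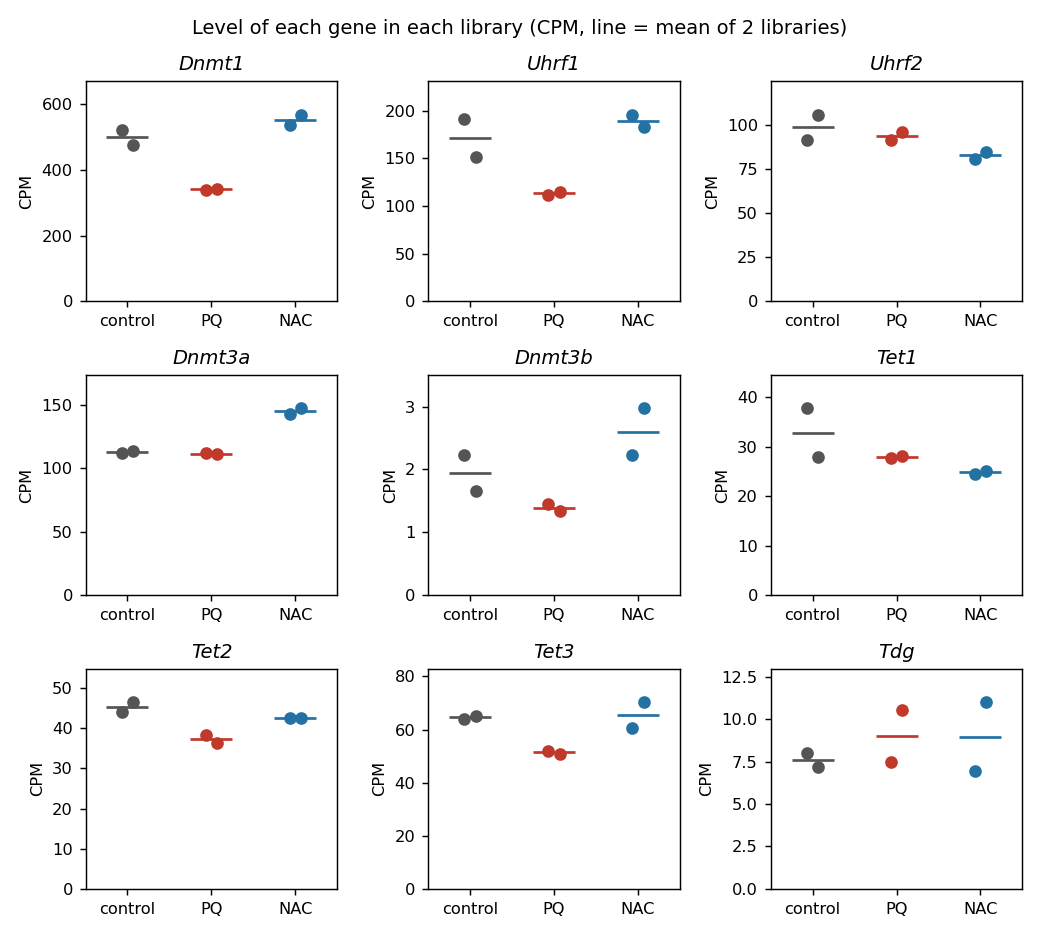
Level of each of the 9 genes in CPM (vertical axis, from 0) in the 2 libraries of control, PQ and NAC, with 1 point per library and a line at the mean. The PQ points of Dnmt1, Uhrf1 and Tet3 lie below those of both other groups, and the NAC points of Dnmt3a (143 and 147) lie above those of both other groups.

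Dnmt1 (Entrez 13433, chr9:20907209-20959888, minus strand, GRCm38) is the maintenance methyltransferase. Its level was 522 and 478 CPM in the control libraries, 338 and 344 in the PQ libraries and 538 and 569 in the NAC libraries. The PQ libraries were the lowest pair, the NAC libraries the highest, and no 2 groups overlapped. On the log2 scale the change was -0.55 ± 0.09 (SE) in PQ against control (edgeR quasi-likelihood test, Benjamini-Hochberg adjusted p = 0.00038) and -0.70 ± 0.09 in PQ against NAC (adjusted p = 1.1e-05). The NAC libraries differed from control by 0.15 ± 0.09 (edgeR adjusted p = 0.28), which did not pass. In these bulk cultures, fewer cells of a type that carries the transcript and less of it per cell cannot be told apart.

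Uhrf1 (Entrez 18140, chr17:56303321-56323486, plus strand) encodes the reader of hemimethylated CpG that brings DNMT1 to new DNA. It stood at 191.5 and 152 CPM in control, 112 and 115 in PQ and 196 and 183 in NAC. Both PQ libraries were below all others, and the control libraries were spread widely enough that control replicate 1 lay within the NAC values. Its log2 fold change was -0.60 ± 0.11 in PQ against control (edgeR adjusted p = 0.0009) and -0.74 ± 0.11 in PQ against NAC (edgeR adjusted p = 4.9e-05). For NAC the value was 0.14 ± 0.11 (edgeR adjusted p = 0.41), and without control replicate 2 it was -0.01.

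Uhrf2 (Entrez 109113, chr19:30030513-30093722, plus strand), the paralogue of Uhrf1, did not follow it. Its values were 91.4 and 106 CPM in control, 91.2 and 95.7 in PQ and 80.8 and 84.7 in NAC. The PQ and control libraries overlapped, and the NAC libraries lay lowest. Against control the log2 fold change was -0.08 ± 0.10 with PQ (edgeR adjusted p = 0.66) and -0.25 ± 0.10 with NAC (0.096), and between PQ and NAC it was 0.18 ± 0.10 (0.21). None of the 3 passed with all libraries. The NAC value passed without control replicate 1 (edgeR adjusted p = 0.035, in a range of 0.035 to 0.49 over the alternatives). Whether Uhrf1 and Uhrf2 differed in their response was not tested. As a share of the summed Uhrf FPKM, Uhrf1 held 68.0% and 59.5% in control, 55.8% and 55.1% in PQ and 71.0% and 68.7% in NAC.

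Dnmt1 and Uhrf1 had the most similar profiles of any pair of the 9 genes over the 6 libraries. The root mean square difference of their centred log2 CPM was 0.082, next to 0.091 for Tet2 and Tet3. The ratio of Dnmt1 to Uhrf1 in FPKM was 1.80 and 2.07 in control, 1.97 and 1.96 in PQ and 1.82 and 2.06 in NAC, so the ranges of the groups overlapped. Genes of DNA replication moved in the same libraries. The 38 S phase genes summed to 3515 to 3791 CPM in control, 2310 to 2371 in PQ and 3853 to 4047 in NAC, with none at 0.

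Of these 38 S phase genes edgeR called 34 lower in PQ against control (median log2 fold change -0.60) and 35 lower in PQ against NAC (median -0.77). Over all genes 8.8% and 15.1% were called lower there, and in NAC against control 8.65% were called higher and 9.26% lower. In PQ against control Mcm5, a subunit of the replicative helicase, fell by 0.93 on the log2 scale. Pold1, the catalytic subunit of polymerase delta, fell by 1.01. With NAC 5 were called higher than control and 1 lower, and the 5 became 10 without control replicate 1 and 1 without control replicate 2 or without NAC replicate 1. The 1 lower with NAC was E2f1, with a log2 fold change of -0.63 ± 0.13 (edgeR adjusted p = 0.0016). In PQ against control E2f1 was not called, at -0.36 ± 0.12 (edgeR adjusted p = 0.053). Its mean was 60.9 CPM in control, 47.5 in PQ and 39.5 in NAC. Of 38 genes of G2 and M phase 36 were called lower in PQ against control (median -0.64) and 34 in PQ against NAC (median -0.59). In NAC against control 0 of these were called higher and 1 lower (median 0.03). The proliferation marker Mki67 fell by 1.14 on the log2 scale and the mitotic cyclin Ccnb2 by 0.91 in PQ against control. The part of these 2 lists in the lower Dnmt1 and Uhrf1 values was not tested.

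**Figure D2:**
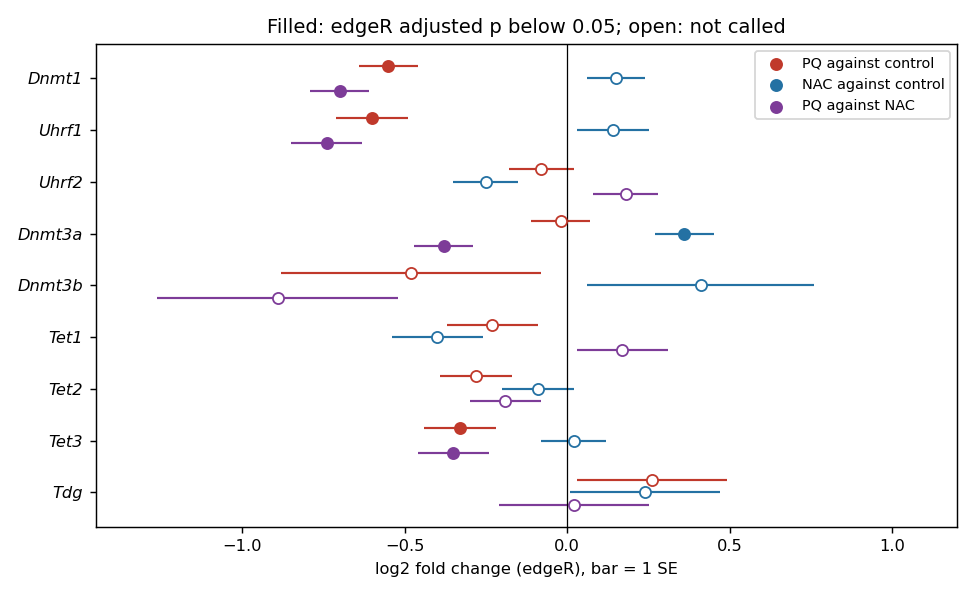
Log2 fold change of each of the 9 genes (horizontal axis) in the 3 comparisons between control, PQ and NAC, with bars of 1 SE. Filled points are those edgeR called at an adjusted p under 0.05: Dnmt1, Uhrf1 and Tet3 in both comparisons of PQ, and Dnmt3a in both comparisons of NAC.

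Dnmt3a (Entrez 13435, chr12:3806007-3914443, plus strand), the de novo methyltransferase, was higher in NAC, and no difference between PQ and control was detected. It stood at 112 and 114 CPM in control, 112 and 111 in PQ and 143 and 147 in NAC. The PQ and control libraries all lay between 111 and 114 CPM, and both NAC libraries lay above all 4. In FPKM the PQ libraries, at 11.37 and 11.44, lay just above the control libraries, at 11.23 and 11.31. Its log2 fold change was 0.36 ± 0.09 in NAC against control (edgeR adjusted p = 0.0097) and -0.38 ± 0.09 in PQ against NAC (edgeR adjusted p = 0.0043). In PQ against control it was -0.02 ± 0.09 (edgeR adjusted p = 0.93). Without NAC replicate 2 the call against control was lost (adjusted p = 0.073), and over the alternatives edgeR, DESeq2 and limma gave adjusted p of 0.0038 to 0.073. An antisense gene, Dnmt3aos, shares 0.8% of the exonic bases of Dnmt3a.

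Most tested astrocyte markers moved with NAC too. Of 7 tested, edgeR called 5 higher in NAC against control, against 8.65% of all genes. In PQ against control 2 were called higher, Apoe and Aldh1l1, against 9.07%. The 8 astrocyte markers, all listed, summed to 142 to 150.4 CPM in control, 177 to 180.2 in PQ and 311 to 318 in NAC. Among them Aldoc, a glycolytic aldolase of astrocytes, rose by 1.09 ± 0.10 on the log2 scale in NAC against control (edgeR adjusted p = 5e-07), and Gfap, the astrocyte intermediate filament, by 1.23 ± 0.21 (edgeR adjusted p = 0.00034). Aldh1l1 went the other way with NAC, without a call against control. It stood at 4.245 and 3.53 CPM in control, 7.39 and 10.1 in PQ and 3.43 and 2.08 in NAC. Markers of other cell types were called in NAC against control too. Of 5 tested of the oligodendrocyte lineage 3 were higher and 0 lower. Of 7 neuronal markers 1 was higher and 3 lower. Of 15 tested of neural stem cells and radial glia 2 were higher and 4 lower. Of 2 of microglia and blood 1 was higher. Over all genes 8.65% were higher and 9.26% lower. The part of any of these markers in the higher Dnmt3a level was not tested.

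Dnmt3b (Entrez 13436, chr2:153649450-153687730, plus strand), the other de novo enzyme, was near the floor of detection. It had 14 to 30 counts in a library, or 2.22 and 1.66 CPM in control, 1.46 and 1.33 in PQ and 2.225 and 2.97 in NAC. PQ libraries were lowest in CPM, while control replicate 1 (2.223) and NAC replicate 1 (2.225) were nearly equal. In FPKM control and NAC overlapped, with control replicate 1 at 0.55 and NAC replicate 1 at 0.54. Against control the log2 fold change was -0.48 ± 0.40 with PQ (edgeR adjusted p = 0.45) and 0.41 ± 0.35 with NAC (0.47), and between PQ and NAC it was -0.89 ± 0.37 (0.079). None of these differences passed the test, and the size of difference detectable at this depth was not computed.

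The makeup of the Dnmt family followed from these values. Dnmt1 held 89.0% and 88.1% of the summed Dnmt FPKM in control, 84.2% and 84.6% in PQ and 86.9% and 87.1% in NAC. Dnmt3a held 10.5% and 11.5% in control, 15.4% and 15.0% in PQ and 12.6% and 12.3% in NAC, while Dnmt3b stayed at 0.42% to 0.59%. The Dnmt3a share was higher in both treated groups than in control, in PQ beside a lower Dnmt1 and in NAC beside a higher Dnmt3a. The Dnmt1 to Dnmt3a ratio was 8.50 and 7.68 in control, 5.48 and 5.63 in PQ and 6.89 and 7.07 in NAC. These groups did not overlap, and with 2 libraries each an exact permutation test cannot reach the threshold, so none was made.

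**Figure D3:**
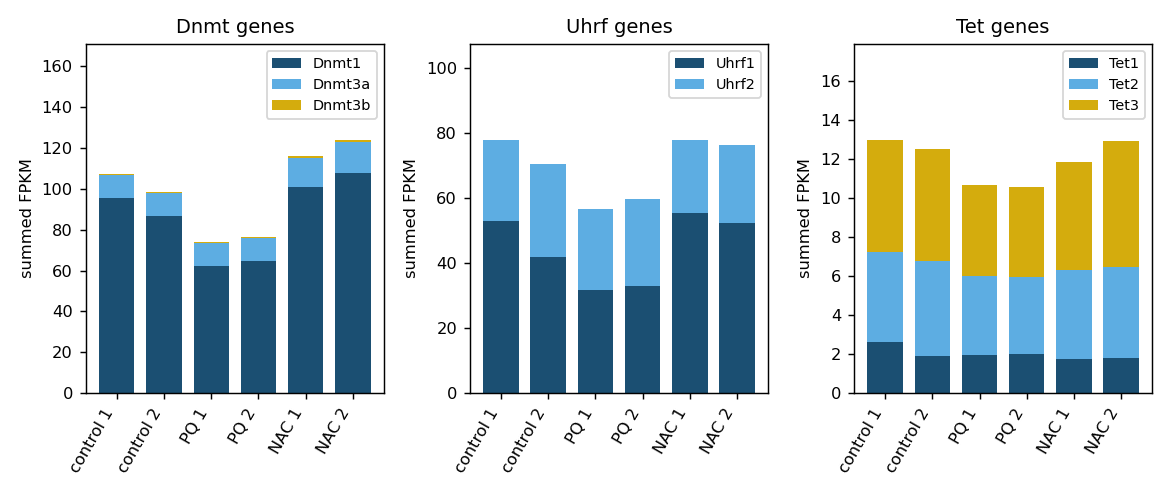
Summed FPKM (vertical axis) of the Dnmt, Uhrf and Tet genes in each of the 6 libraries, stacked by gene. Dnmt1 fills most of each Dnmt bar (84.2% to 89.0%), and the Dnmt total is lowest in the 2 PQ libraries.

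Tet3 (Entrez 194388, chr6:83362373-83459084, minus strand) had the highest FPKM of the 3 dioxygenases in every library. Its level was 64.1 and 65.1 CPM in control, 52.0 and 50.75 in PQ and 60.7 and 70.3 in NAC. Both PQ libraries were below all 4 others, while the control values fell between the NAC values. Its log2 fold change was -0.33 ± 0.11 in PQ against control (edgeR adjusted p = 0.038), -0.35 ± 0.11 in PQ against NAC (0.018) and 0.02 ± 0.10 for NAC (0.93). The call against control was lost in 9 of 14 alternatives. These were library size scaling, DESeq2, the 3 limma fits on FPKM, and the fits without control replicate 1, control replicate 2, PQ replicate 1 or PQ replicate 2, and the adjusted p over all 14 ranged from 0.032 to 0.26. The call against NAC was lost in 6 of 14, among them the fits without PQ replicate 1 (edgeR adjusted p = 0.073), PQ replicate 2 (0.12) and NAC replicate 2 (0.20), in a range of 0.0089 to 0.20.

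Tet2 (Entrez 214133, chr3:133463679-133545139, minus strand) stood at 44.0 and 46.4 CPM in control, 38.2 and 36.2 in PQ and 42.45 and 42.5 in NAC. The PQ libraries were again lowest and did not overlap either group. The change did not pass the test: on the log2 scale it was -0.28 ± 0.11 for PQ against control (edgeR adjusted p = 0.086), -0.09 ± 0.11 for NAC against control (0.63) and -0.19 ± 0.11 between PQ and NAC (0.20). The PQ values of Tet2 and Tet3, -0.28 and -0.33, lay within 1 SE of each other.

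Tet1 (Entrez 52463, chr10:62804570-62908996, minus strand), the dioxygenase best known from embryonic stem cells, was the lowest of the 3. It stood at 37.7 and 27.8 CPM in control, 27.8 and 28.1 in PQ and 24.5 and 25.2 in NAC. Control replicate 1 was above the other 5 libraries, and control replicate 2 lay within the narrow range of PQ. Against control the log2 fold change was -0.23 ± 0.14 with PQ (edgeR adjusted p = 0.30) and -0.40 ± 0.14 with NAC (0.060), and between PQ and NAC it was 0.17 ± 0.14 (0.40). Without control replicate 1 the PQ value was 0.00, and without control replicate 2 it was -0.43 (edgeR adjusted p = 0.049, in a range of 0.049 to 0.99 over the alternatives). The NAC value was called without control replicate 2 (edgeR adjusted p = 0.0046) and with no count filter (0.029), in a range of 0.0046 to 0.52.

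The summed FPKM of the 3 Tet genes was 12.98 and 12.5 in control, 10.7 and 10.6 in PQ and 11.9 and 12.95 in NAC. Tet3 held 43.8% to 50.1% of it, Tet2 35.8% to 38.9% and Tet1 14.0% to 20.1%. The PQ totals were below the other 4, whereas the shares of Tet3 in PQ, 43.8% and 43.95%, lay close to those in control, 44.1% and 46.0%.

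Tdg (Entrez 21665, chr10:82629828-82650799, plus strand) showed no called change, and its copy sets a limit on that reading. The counts given to Tdg were 78.8 and 69.4 in control, 72 and 111 in PQ and 74.9 and 111 in NAC. The counts given to Tdg-ps2 were 1741 and 1682 in control, 1466 and 1517 in PQ and 1870 and 1582 in NAC. Tdg thus held 3.85% to 6.84% of their sum, and its spread within PQ and within NAC was larger than any difference between groups. For Tdg alone the log2 fold change from control was 0.26 ± 0.23 with PQ (edgeR adjusted p = 0.50) and 0.24 ± 0.23 with NAC (0.53), and between PQ and NAC it was 0.02 ± 0.23 (0.96). For the sum of both genes, a setting chosen after seeing the data, it was -0.22 ± 0.09 (edgeR adjusted p = 0.11), -0.07 ± 0.09 (0.65) and -0.14 ± 0.09 (0.25). The direction against control therefore depends on whether the copy is included. Reads in the sequence that both genes share, such as the lower-case letters printed earlier, do not tell them apart, and the level of Tdg is uncertain for that reason. Glt8d2, on the opposite strand, shares 6.83% of the exonic bases of Tdg, and no label or header says that counting used the strand.

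**Figure D4:**
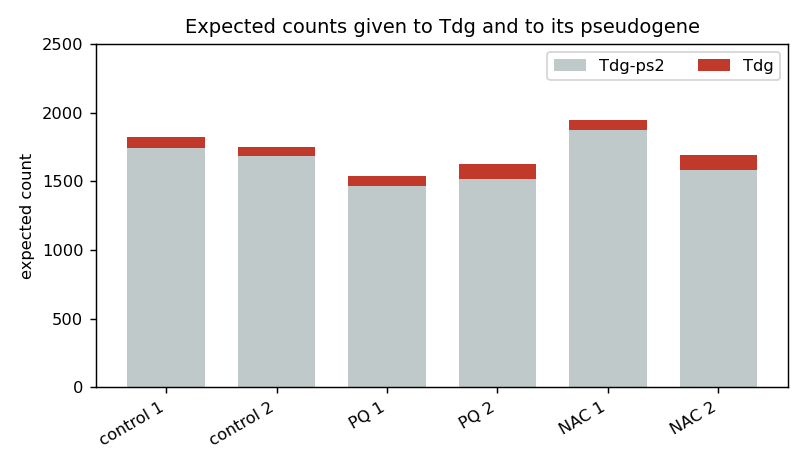
Expected count (vertical axis, from 0) given to Tdg-ps2 (grey) and to Tdg (red) in each of the 6 libraries. Tdg is the thin upper part of each bar, 3.85% to 6.84% of the sum.

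Among 22 tested partners of the methyltransferases and of UHRF1, 8 were called lower by edgeR in PQ against control, with a median log2 fold change of -0.18 over the list, where 8.8% of all tested genes were called lower. Cdca7, part of a remodelling complex needed for methylation of compact chromatin, fell from 57.2 to 29.8 CPM (log2 fold change -0.94 ± 0.11, edgeR adjusted p = 1.1e-05). Lig1, the ligase of Okazaki fragments, which UHRF1 can bind, fell by 0.86 ± 0.10 on the log2 scale (edgeR adjusted p = 1.2e-05), and Pclaf and Pcna, both at replication clamps, by 0.69 and 0.57. Lig1 and Pcna are also in the S phase list. Hells, the helicase partner of CDCA7, fell by 0.43 ± 0.12 (edgeR adjusted p = 0.019), and Nsd2, Suv39h2 and Cdca7l were the other 3. Without PQ replicate 2 the 8 became 4, with Hells, Nsd2, Suv39h2 and Cdca7l no longer called, and Hells and Cdca7l were also not called without PQ replicate 1.

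With NAC 2 of the 22 partners were called higher, Cdca7 at 0.45 ± 0.10 on the log2 scale (edgeR adjusted p = 0.0033) and Setdb1, a histone H3 lysine methyltransferase of silenced repeats, at 0.38 ± 0.10 (edgeR adjusted p = 0.011). This count is near the 8.65% of all tested genes called higher, and Setdb1 was not called without control replicate 2 or without NAC replicate 1. In PQ against NAC 11 of the 22 were called lower (median -0.30), against 15.1% of all genes, a count that was 7 without PQ replicate 2. Cdca7 had the lowest p among them, with a log2 fold change of -1.40 ± 0.10 (edgeR adjusted p = 3e-08).

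The methyl donor cycle makes and recycles S-adenosylmethionine, the methyl source of all DNMT enzymes. Of its 17 tested genes 8 were called lower in PQ against control (median -0.30), against 8.8% of all genes, and this count was 4 without PQ replicate 2. Ahcy, which clears the inhibitory product S-adenosylhomocysteine, fell from 114 to 75.4 CPM (log2 fold change -0.59 ± 0.10, edgeR adjusted p = 0.00036). Srm and Shmt1, of spermidine and one-carbon synthesis, fell by 0.67 and 0.72 on the log2 scale, and the folate carrier Slc19a1 by 0.99. Relative to control, NAC libraries were lower in 3 of these genes, against 9.26% of all genes. Among them was Cth of transsulfuration, at 2.53 and 8.0 CPM in control and 0.556 and 0.792 in NAC. Its log2 fold change was -2.94 ± 0.53 (edgeR adjusted p = 0.00061), and it was -1.89 without control replicate 2 and -3.55 without control replicate 1. The 2 called higher with NAC were Ahcyl2 and Shmt1, each at 0.44, against 8.65% of all genes, and Shmt1 was not called without control replicate 2 or without NAC replicate 1. In PQ against NAC 8 were called lower (median -0.11), against 15.1% of all genes, or 5 without PQ replicate 1.

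The base excision list joins genes that act after TDG has cut with other glycosylases, among them Neil3 and Ung. Of 16 tested, 6 were called lower in PQ against control (median -0.24), against 8.8% of all genes, a count that was 1 without PQ replicate 2 and 3 without PQ replicate 1 or control replicate 1. Neil3, a glycosylase of oxidised bases in dividing cells, fell from 32.8 to 13.2 CPM (log2 fold change -1.31 ± 0.14, edgeR adjusted p = 9.1e-06). Parp1 and Parp2, the strand break sensors, fell by 0.41 and 0.54 on the log2 scale and the uracil glycosylase Ung by 0.76. Ung was not called without control replicate 1 or PQ replicate 2, Parp2 without control replicate 2 or PQ replicate 2, and Parp1 without control replicate 1 or either PQ library. The 1 call for NAC against control was the abasic site nuclease Apex1, at 0.52 ± 0.14 (edgeR adjusted p = 0.015). 1 of 16 is no larger a share than the 8.65% of all genes called higher. There were 0 such calls without control replicate 2 or NAC replicate 2 and 2 without control replicate 1. In PQ against NAC 6 were lower (median -0.21), against 15.1% of all genes, and 1, Polb, the gap-filling polymerase, was higher (0.50 ± 0.13, edgeR adjusted p = 0.0083), a call lost without PQ replicate 1 or NAC replicate 1.

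Against control, genes around the TET enzymes were called about as often as all genes. Of 21 tested partners and enzymes of 2-oxoglutarate supply, edgeR called 2 higher and 2 lower in PQ against control (median -0.02), and likewise 2 and 2 in NAC against control (median -0.01). Over all genes 9.07% were higher and 8.8% lower with PQ, and 8.65% and 9.26% with NAC. Gadd45b, a stress-induced adaptor linked to active demethylation, rose from 6.05 CPM in control to 17.2 in PQ and 16.3 in NAC (log2 fold changes 1.51 ± 0.19 and 1.43 ± 0.19, both with an edgeR adjusted p = 3.8e-05). Gadd45g rose with PQ by 0.79 ± 0.10 on the log2 scale (edgeR adjusted p = 5.6e-05) and Sall1 with NAC by 0.45 ± 0.10 (edgeR adjusted p = 0.0034). Idh2, the mitochondrial enzyme that yields 2-oxoglutarate, fell from 310.6 CPM to 231 in PQ and 194 in NAC, and Cxxc5 fell in both, by 0.30 and 0.42. The 2 lower in PQ became 0 without PQ replicate 2 and 1 without PQ replicate 1, NAC replicate 1 or NAC replicate 2, and the 2 lower in NAC became 1 without control replicate 1 or NAC replicate 1. Cxxc5 in PQ was also not called without control replicate 1. The treated groups were compared with the same control libraries.

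Readers of methylated CpG had few calls against control, which do not set the list apart from the 17.9% of all genes called with either treatment. In PQ against NAC 3 were called higher and 2 lower (median -0.14), against 15.5% and 15.1% of all genes. The 3 higher were Zbtb38 (0.77 ± 0.11, edgeR adjusted p = 3.7e-05), Zbtb4 (0.65 ± 0.11, edgeR adjusted p = 0.00024) and Mbd5 (0.63 ± 0.13, edgeR adjusted p = 0.0012). The 2 lower were Mbd4 and Mbd3. Of 10 tested, Mbd5 (0.71 ± 0.13, edgeR adjusted p = 0.001) and Zbtb38 (0.36 ± 0.11, edgeR adjusted p = 0.027) were higher and Mbd3 (-0.35 ± 0.10, edgeR adjusted p = 0.020) lower in PQ against control, with a list median of -0.01. With NAC Zbtb38 and Zbtb4 were lower than control, by 0.41 and 0.34 on the log2 scale. The 2 higher with PQ became 1 without control replicate 2, PQ replicate 1 or PQ replicate 2, and the 1 lower became 0 without either PQ library. The 2 lower with NAC became 0 without control replicate 1 or NAC replicate 1 and 1 without any other library.

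Germline genes that promoter methylation keeps silent in body cells were mostly too low to test. Of 15 listed, 9 appeared in the tables and 4 passed the filter. None of the 4 was called by edgeR in any comparison, with 1 lower at an unadjusted p under 0.05 in PQ against control and 1 in PQ against NAC. DESeq2 called 0, and limma called 1 lower in PQ against NAC. The highest was Brdt, at 8.995 and 10.3 CPM in control, 12.2 and 11.2 in PQ and 8.99 and 9.61 in NAC. Sycp1 was at 2.60 to 4.65 CPM, and Dazl, Mael, Asz1, Hormad1, Tex101 and Mov10l1 were not listed in any library.

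**Figure D5:**
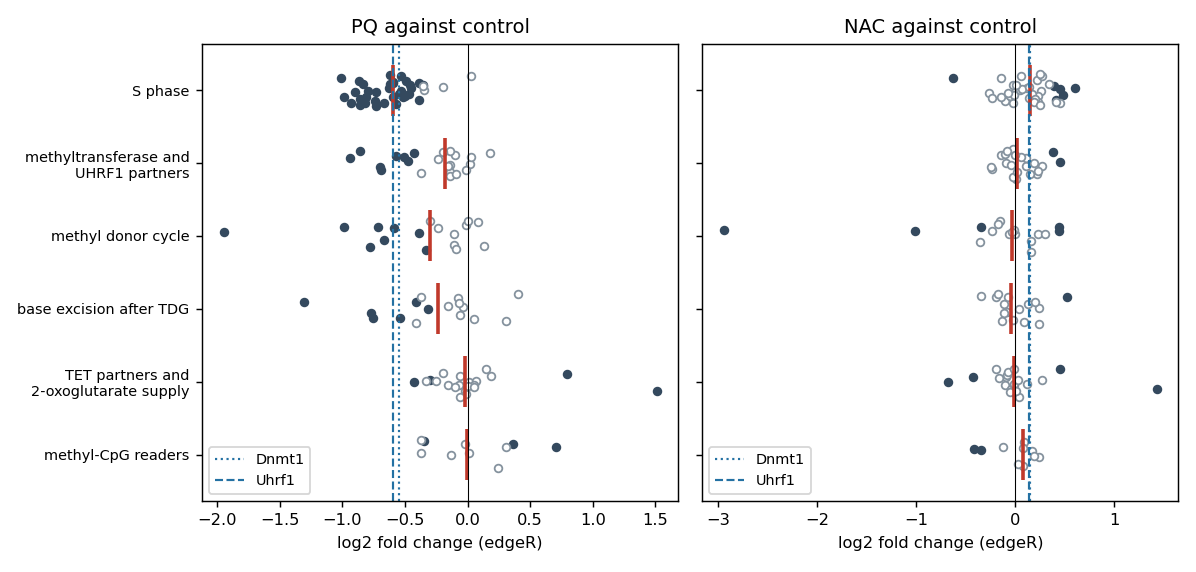
Log2 fold change (horizontal axis) of the tested genes of 6 lists for each treatment against control, with filled points for edgeR adjusted p under 0.05 and a red line at the list median. The dotted and dashed vertical lines give Dnmt1 and Uhrf1, which lie near the S phase median (-0.60) in PQ against control and near it (0.15) in NAC against control.

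For each gene called at least once, the 3 genes of most similar profile were taken from the 10787 genes with a mean of at least 5 CPM. Likeness was the root mean square difference of centred log2 CPM over the 6 libraries. Nearest to Dnmt1 were Mdc1 (0.026), a DNA damage scaffold, Xrcc3 (0.030), a recombination factor, and Ttf2 (0.044), and 107 genes lay within 0.1. Nearest to Uhrf1 were the condensin subunit Ncapd2 (0.042), the nucleotide deaminase Dctd (0.047) and the chromatin assembly subunit Chaf1a (0.049), with 46 genes within 0.1.

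Nearest to Dnmt3a were Trp53bp2 (0.021), Aldh6a1 (0.023) and the retinoid receptor Rxra (0.026), among 427 genes within 0.1. Nearest to Tet3 were Pcdhb11 (0.029), Pfdn6 (0.041) and Pcdh17 (0.042), among 346. The spread of each gene about its own mean, on the same scale, was 0.303 for Dnmt1, 0.335 for Uhrf1, 0.174 for Dnmt3a and 0.171 for Tet3. The smaller the spread, the more genes lie close, so the counts for Dnmt3a and Tet3 do not compare with those for the other pair.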

How the data were processed

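RNA was extracted with TRIZOL, reverse transcribed from random N6 primers and sequenced on BGISEQ-500, per the labels' protocols, which name rRNA depletion and oligo dT selection without saying which was used. RSEM, Bowtie2 2.2.5, HISAT2 2.0.4 and the mm10 build are named, without roles, per the submitters' processing notes. The deposited tables give an expected count and an FPKM per gene, per the file headers. The expected counts are the authors' estimates: 20.9% to 21.4% of values in a library are not whole. Tables list only genes above 0, so an absent gene was set to 0. Of 17254 identifiers 17199 had a name, and the other 55 held 0.072% to 0.079% of counts.

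After rounding, edgeR 4.0.16 (R 4.3.3) was run on the expected counts with filterByExpr (minimum count 10, minimum total 15, leaving 12813 genes), TMM scaling, a quasi-likelihood model of the 3 group means on all 6 libraries together (3 residual degrees of freedom), and Benjamini-Hochberg adjustment over all tested genes at 0.05. SE is |log2 fold change| over the root of the F statistic. CPM uses TMM-scaled library sizes. The FPKM values deposited by the authors served for levels between genes, for shares, and for alternatives on log2(FPKM + 1) and log2(FPKM + 0.1) with limma 3.58.1. Other alternatives were DESeq2 1.42.0, library size scaling, no count filter, a robust fit, a fit of 2 groups only and leaving out each library. The edgeR step was tested on simulated data. Tables were made with Python 3.11.15 and pandas 2.3.3, figures with matplotlib 3.10.9.

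The members and lists were chosen with earlier results of these data known. All 9 members are named, up to 4 called genes of each list per comparison by smallest p, and the 3 nearest profiles of each called member. Hells, Nsd2, Suv39h2, Cdca7l, Polb, Pold1, Ccnb2, Gfap, Brdt and Sycp1 fall outside this rule and were chosen after their values were seen. Some genes that the rule names are not reported here. Loci are from GENCODE M21 (GRCm38), promoters from RefSeq GRCm38.p6. Protein sequences were not used here. The edgeR SE and p-values reflect the spread between libraries, with the spread of each gene moderated by that of all tested genes. They therefore draw on more than the 3 residual degrees of freedom of a single gene.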

Additional observations from a re-analysis of the deposited data

How the results depend on the processing

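The calls of Dnmt1 in both PQ comparisons and of Dnmt3a and Uhrf1 in PQ against NAC held in all alternatives run. The Uhrf1 call in PQ against control was lost in 1, limma on log2(FPKM + 1) without a filter (adjusted p = 0.068, in a range of 4.2e-07 to 0.068). With that setting 702 genes were called in PQ against control, 972 in NAC against control and 2514 in PQ against NAC, and 1 member was lower in PQ against control. DESeq2 called 1672, 1718 and 2980 genes. With single libraries left out the counts ran from 829 to 2181, 1338 to 2157 and 2427 to 4442 genes. Members called in NAC against control ran from 0 to 1 higher and from 0 to 1 lower, and 1 was lower with no count filter, Tet1. Library size scaling moved the split of calls in NAC against control to 1392 higher and 986 lower (58.5% higher, against 48.3%) and in PQ against control to 1332 and 965 (58.0% higher, against 50.8%), and shifted the median of all genes by under 0.1. Dnmt3a in PQ against control, which was not called, was 0.02 with library size scaling and in the 3 limma fits. Tdg summed with its copy was -0.22, -0.07 and -0.14 in the 3 comparisons, because most of the summed counts are those of Tdg-ps2. With single libraries left out, these values, none of which passed with all libraries, reached or crossed 0: in PQ against control Uhrf2 ran from -0.18 to 0.03, Tet1 from -0.43 to 0.00 and Tdg from -0.02 to 0.48. In NAC against control Uhrf1 ran from -0.01 to 0.32, Tet3 from -0.09 to 0.12 and Tdg from -0.12 to 0.54, and in PQ against NAC Tdg ran from -0.28 to 0.38. For the other changes the cause was not tested. No paired analysis was possible because the labels give the groups no shared replicate numbers: the titles number the control libraries 8 and 11, PQ 9 and 12 and NAC 10 and 13, and no label says that consecutive numbers form a set. Such sets were not fitted. Depth limits Dnmt3b, with 14 to 30 counts in a library, and Tdg.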
